A study of Arabidopsis thaliana with 8 samples.

Results

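The change in gene expression that iron deficiency brought about was followed in roots of pye-1, a mutant of POPEYE (PYE), by setting the 2 arrays titled pye, -Fe against the 2 titled pye, +Fe. These are 4 of the 8 arrays of the study; the other 4 hold wild-type roots on the same media. Arabidopsis thaliana plants of the Columbia ecotype, wild type or carrying the pye-1 allele, were grown on standard medium and transferred to an iron-containing (+Fe) or iron-free (-Fe) medium for 24 h. The +Fe medium held Fe(III)-EDTA as the iron source, and in the -Fe medium 0.3 mM ferrozine, which chelates ferrous iron, took its place. The labels give an age of 7 days after germination, whole roots cut below the hypocotyl, and about 320 roots per biological replicate, so each array is a pool of many plants. pye-1 is a single mutant allele, and no rescued line or other allele is among the groups.

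Iron is abundant in most soils but poorly soluble, and Arabidopsis roots acquire it by acidifying the soil, releasing coumarins that mobilise ferric iron, reducing it at the surface and importing the ferrous form. The genes for these steps are switched on when iron runs short by the basic helix-loop-helix (bHLH) factor FIT together with bHLH proteins of subgroup Ib, which are themselves under bHLH factors of subgroup IVc. PYE is a bHLH protein of inner root tissues that is known as a repressor of genes for moving and storing iron, and BRUTUS and its relatives BTSL1 and BTSL2 are E3 ubiquitin ligases that dampen the same response.

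The values are MAS5 signals of Affymetrix arrays on a linear scale of arbitrary units, 1 number per probe set (a group of probes read together). Values for the 2 arrays of a medium are given as replicate 1 and then replicate 2. A change is the log2 difference of the 2 -Fe arrays from the 2 +Fe arrays, ± its standard error (n = 2 arrays per medium), from a linear model over all 8 arrays with the replicate number as a block. A probe set is called when its p-value, adjusted over all 15922 tested probe sets by Benjamini-Hochberg, is under 0.05. Signals of different probe sets depend on their probes and are not compared with each other. In whole roots, fewer cells of a type and less RNA per cell cannot be told apart.

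Median signal was 91.4 to 97.6 on the 8 arrays. The control level of an array, taken as its brightest reading over 27 bacterial control probe sets, was 11.7 to 19.3 on the pye-1 arrays, and a probe set at or under it has only a bound. The pye-1 arrays of 1 medium correlated at 0.975 and 0.977 over the tested probe sets on the log2 scale, against 0.961 to 0.973 between media. The dimmest probe sets, which were left out of the test, are not in these values. The 25S ribosomal RNA control read 242 and 265 on the replicate 1 arrays of pye-1 and 1691 and 2703 on the replicate 2 arrays, so it was several times higher on both replicate 2 arrays. Its part in the results was not tested apart from the block. The signal from the end of a control transcript over that from its start was also read on the pye-1 arrays. It was 1.37 to 1.58 for GAPDH, 2.81 to 3.42 for ubiquitin and 27.7 to 40.4 for actin. The actin ratio was highest on -Fe replicate 1 and lowest on -Fe replicate 2. The part of these ratios in the results was not tested. No probe set is named for the markers of root cell layers and dividing cells that were listed, so the labelled tissue could not be checked against those. The root-hair expansin EXPA7 read 602 and 497 with iron and 559.9 and 408 without it.

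Without iron, 422 of 15922 probe sets were called in pye-1 (2.65%), 269 higher (1.69%) and 153 lower (0.961%). An unadjusted p under 0.05 was reached by 2297. The rises were larger than the falls. Their median change was 0.95 on the log2 scale for the higher and -0.75 for the lower, against -0.04 over all tested probe sets. A change of at least 2-fold was found for 126 of the higher and 45 of the lower, and one of at least 4-fold for 39 and 5. Without the replicate block, 167 probe sets were called (1.05%), 135 higher and 32 lower, all of them among the 422. Leaving out the pye-1 +Fe replicate 2 array left 139 calls, and 119 probe sets (102 higher and 17 lower) stayed called whichever of the 8 arrays was left out.

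**Figure D1:**
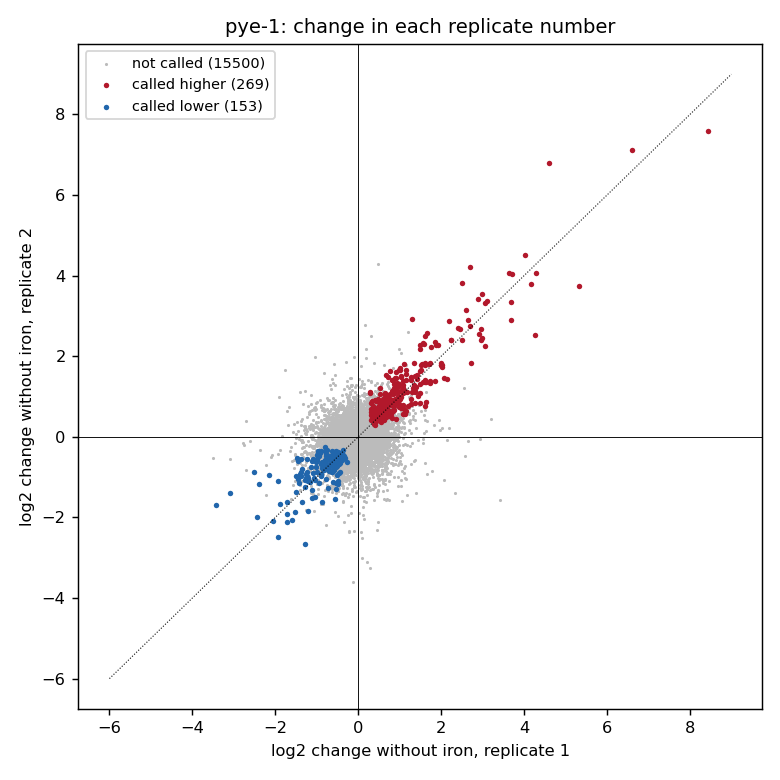
Log2 change without iron in pye-1 for each tested probe set, replicate 1 on the x axis and replicate 2 on the y axis, with the 269 called higher in red, the 153 called lower in blue and the others in grey; the dotted line marks equal changes. The changes of the replicates correlated at 0.418 over all tested probe sets, and the large rises lie along the line up to a log2 change of about 8.

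Bright probe sets were called more often. With the tested probe sets ranked by mean signal and cut into 4 equal bins, 1.16% were called in the dimmest bin and 4.25% in the brightest, while the median standard error fell from 0.305 to 0.103 on the log2 scale. The median size of a called change was 1.66 in the dimmest bin and 0.634 in the brightest. Of the probe sets that name 1 gene 2.08% were called (122 higher and 61 lower), and of those with no name in the annotation 3.44% (146 higher and 88 lower). Named genes on nuclear chromosomes 1 to 5 were called at 1.80% to 2.33%.

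PYE (AT3G47640) read 19.1 and 15.0 in pye-1 with iron and 25.03 and 28.2 without it. All 4 values were above the control level of their array and under the wild-type values, 56.7 and 65.1 on the +Fe and 138 and 149 on the -Fe arrays. The change in pye-1 was 0.65 ± 0.29 and was not called (adjusted p = 0.331). The labels do not say which part of the gene the allele affects, so the probe set may lie inside or outside it.

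The tested genes of the iron uptake list rose in pye-1. They are genes of coumarin synthesis and release, with the manganese transporter AT3G58060 and the iron deficiency marker AT3G07720. Of the 18 loci listed, 5 had a named probe set, and all 5 were called higher (background 1.69%), with a median change of 3.85 against -0.04 over all tested probe sets. The other 13 loci, among them the ferrous iron importer IRT1 and the ferric reductase FRO2, are named by no probe set in the annotation and are not analysed here by name. AT3G12900 and AT3G58060 read under 23.3, the mean signal that the filter required, on every +Fe array of both genotypes. They were thus tested only through their -Fe arrays. Members were also chosen with earlier results of these data known, so the count against the background is a description and not a test. AT3G12900, the scopoletin 8-hydroxylase that makes the iron-mobilising coumarin fraxetin, read 5.40 and 12.5 with iron and 1855 and 2410 without it. Both +Fe values were at the control level, so the gene was at least 137-fold higher without iron (adjusted p = 9.12e-10). AT3G13610, the feruloyl-CoA 6'-hydroxylase F6'H1 that acts upstream of it, already stood at 3138 and 1931 with iron and reached 6294 and 6077 without it. The media did not overlap, and the change was 1.33 ± 0.15 (adjusted p = 0.000173).

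BGLU42, a beta-glucosidase that frees coumarins from their glucosides, rose from 264 and 257 to 1241 and 1363. Both replicates moved by nearly the same amount, with a change of 2.32 ± 0.11 (adjusted p = 7.22e-08). AT3G07720, a kelch-repeat protein used as a marker of iron deficiency, rose from 373 and 292 to 4617 and 4891, a change of 3.85 ± 0.16 (adjusted p = 2.59e-08). AT3G58060, the manganese transporter MTP8 of the vacuole membrane, read 7.31 and 21.8 with iron and 294 and 293 without. The lower of its +Fe values was under the control level, and the change of 4.54 ± 0.39 (adjusted p = 1.97e-05) became 3.86 when signals were raised to that level. All 5 calls were also made without the block and in each fit that left out 1 array.

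Regulators of the response were called less uniformly. Of 21 loci listed, 14 had a named probe set; 13 probe sets were tested, 5 were called higher (background 1.69%) and 1 lower (0.961%), and the median change was 0.28. BHLH101, a subgroup Ib factor that partners FIT, read 74.5 and 83.3 with iron and 959 and 849 without it. The -Fe arrays were far above the +Fe arrays, by 3.52 ± 0.24 (adjusted p = 2.89e-06). AT1G47400, which encodes the small IRONMAN peptide IMA1 that activates the response, read 226 and 216 with iron and 1783 and 1186 without. Its change was 2.72 ± 0.14 (adjusted p = 3.12e-07), with replicate 1 rising more than replicate 2. The wild-type +Fe arrays read 45.3 and 39.1; the genotypes were not tested against each other on that medium.

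Of the ubiquitin ligases, BTSL1 and BTSL2 rose, and BRUTUS is named by no probe set in the annotation and is not analysed here by name. AT1G74770 (BTSL1) has 2 probe sets, which rose by 2.10 ± 0.11 and 2.10 ± 0.25. The brighter one read 603 and 479 with iron and 2281 and 2321 without (adjusted p = 2.46e-07), and the dimmer one 56.0 and 57.3 and 201 and 293 (adjusted p = 0.000361). AT1G18910 (BTSL2) moved less, from 267 and 300.2 to 566 and 729, a change of 1.18 ± 0.11 (adjusted p = 2.97e-05). These calls, like those of BHLH101 and IMA1, were made without the block and in all 8 fits that left out 1 array.

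The tested factors of subgroup IVc, and bHLH121, did not pass the test. The subgroup IVc members ILR3, bHLH104, bHLH115 and bHLH34, which bind the promoters of the Ib genes, changed by 0.28, 0.05, -0.03 and -0.04 (adjusted p = 0.204 to 0.951). bHLH121, which acts with them, changed by -0.11 (adjusted p = 0.725). ILR3 read 769 and 928 with iron and 939.5 and 1123 without, and its lower -Fe value was close to its higher +Fe value. Within replicate numbers, which the block compares, ILR3 changed by 0.29 and 0.28, and the change was not called. NAI1 (bHLH20), known for the formation of endoplasmic reticulum bodies, was called lower at -0.48 ± 0.12 (adjusted p = 0.0483), from 549.6 and 417 to 367 and 319.6. Its adjusted p was 0.333 without the block and 0.349 without pye-1 +Fe replicate 1, and the call held in 2 of the 8 fits that left out 1 array. Its relative AT4G37850 changed by -0.19 (adjusted p = 0.861).

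**Figure D2:**
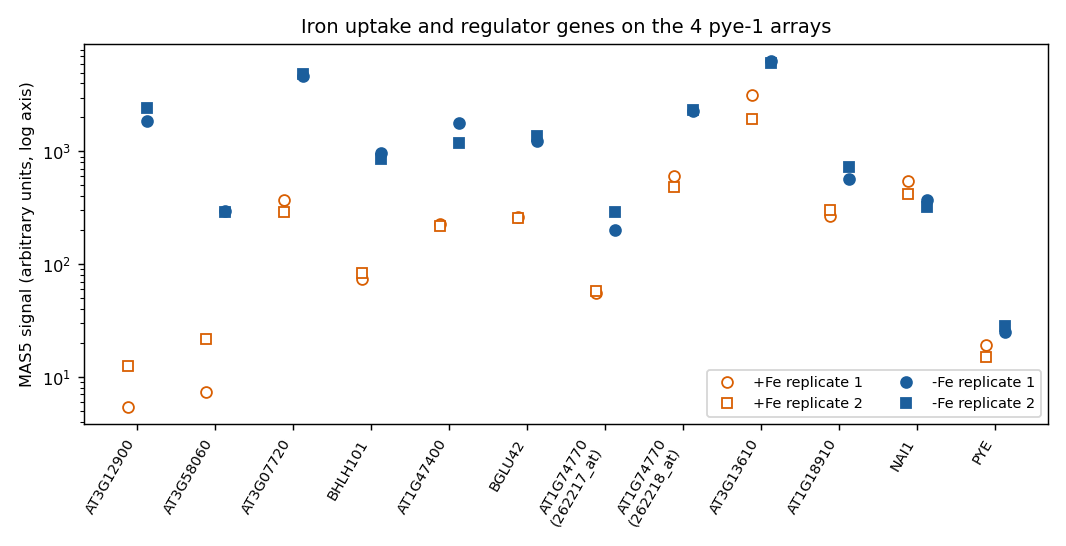
MAS5 signal (arbitrary units, log axis) of the uptake and regulator genes called in pye-1, and of PYE, on each of the 4 pye-1 arrays; open orange symbols are +Fe, filled blue symbols -Fe, circles replicate 1 and squares replicate 2. For each gene shown other than NAI1 the -Fe arrays lie above the +Fe arrays; PYE is shown although it was not called.

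Of 13 listed loci for coumarin and phenylpropanoid synthesis, 5 had a named probe set, and 3 of these were called higher (background 1.69%): the hydroxylases AT3G12900 and AT3G13610 above, and HCT, a hydroxycinnamoyl transferase of lignin precursor synthesis, which rose from 1629 and 1635 to 2126 and 2217. The change of HCT was 0.41 ± 0.08 (adjusted p = 0.0196), and its call was lost without the block (adjusted p = 0.196) and in 4 of the 8 fits that left out 1 array (0.28 without pye-1 +Fe replicate 2). AT1G28680 (COSY), the acyltransferase that closes the coumarin ring, changed by 0.44 ± 0.11 and was not called (adjusted p = 0.0595), nor was the cinnamoyl-CoA reductase CCR2, at 0.62 (adjusted p = 0.0788). Among other metal transporters, 2 probe sets were tested, and beside MTP8 the zinc transporter ZIP9 changed by 0.73 ± 0.32 (adjusted p = 0.325).

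**Figure D3:**
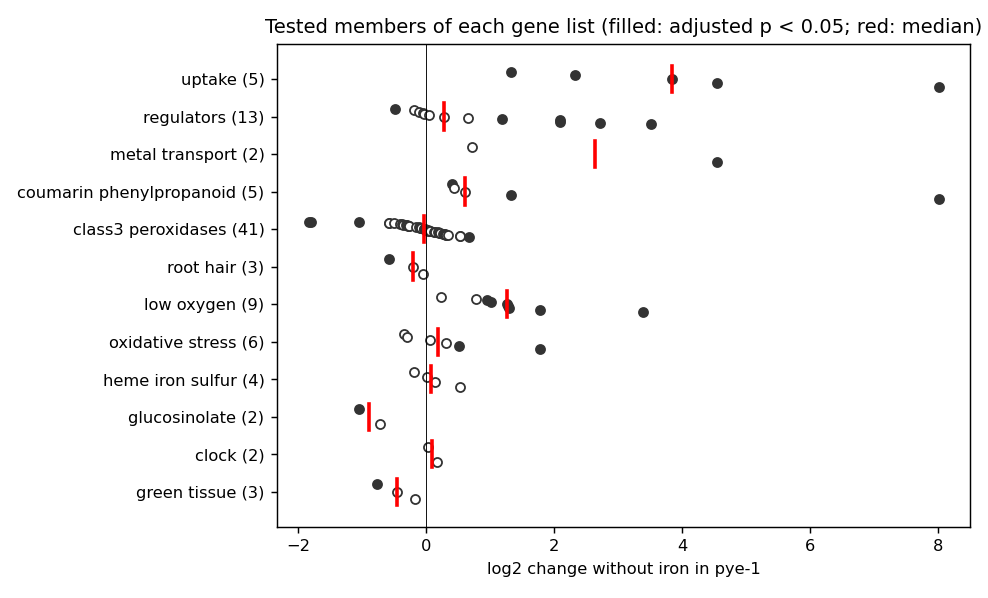
Log2 change without iron in pye-1 of each tested probe set in 12 gene lists, with the number tested in parentheses; filled points were called, open points were not, and the red bar is the median of the list. The 5 uptake probe sets and the low-oxygen genes lie to the right of 0, and the 41 class III peroxidases centre on -0.02.

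Class III peroxidases, secreted haem enzymes that act on cell wall polymers, were the best covered family. Of 51 with a named probe set 41 were tested; 4 were called lower (background 0.961%), 1 was called higher (1.69%) and 36 were not called. The family median was -0.02, so the falls were those of single members. AT4G26010 read 1441 and 1493 with iron and 685 and 736 without it. Its replicates nearly coincided, and the change was -1.05 ± 0.10 (adjusted p = 2.97e-05). AT3G49960 fell from 230.0 and 326 to 76.2 and 77.6, by a change of -1.83 ± 0.26 (adjusted p = 0.00126), and AT1G34510 from 155 and 76.3 to 29.3 and 33.7, by -1.79 ± 0.28 (adjusted p = 0.00308). Each of these calls was lost in 1 of 8 fits, at adjusted p = 0.0614 without pye-1 +Fe replicate 2 and 0.0968 without pye-1 +Fe replicate 1.

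AT2G37130 read 7024 and 5568 with iron and 4574 and 3824 without. Replicate 1 was the higher on both media and the media did not overlap. The change of -0.58 ± 0.08 (adjusted p = 0.00171) was called in all 8 fits that left out 1 array but lost without the block (adjusted p = 0.303). AT2G41480 was the 1 member called higher, at 0.67 ± 0.16 (adjusted p = 0.0414), from 161 and 123 to 220.4 and 226. It was lost without the block (adjusted p = 0.17) and in 6 of 8 fits (0.48 without pye-1 +Fe replicate 2). Of 3 tested root-hair genes 1 was called lower (background 0.961%), the expansin EXPA18, which fell from 486 and 424 to 325 and 286, a change of -0.58 ± 0.11 (adjusted p = 0.016; 0.261 without the block and 0.241 without pye-1 +Fe replicate 2). EXPA7 changed by -0.19 and was not called (adjusted p = 0.473).

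Genes known to be induced when roots run short of oxygen rose in pye-1. Of 26 loci listed, 13 had a named probe set and 9 of these were tested; 7 were called higher (background 1.69%), none lower, with a median change of 1.26. Without the block 5 of the 7 were called. AT4G10270, which had the largest change of the list, was tested only through its -Fe values in pye-1. On all other arrays it read 9.34 to 27.5, and the filter required a mean signal of 23.3. Members were also chosen with earlier results of these data known, so the count against the background is a description and not a test. AT1G33055, a small protein of unknown function induced by low oxygen, read 417 and 465 with iron and 1043 and 1071 without it. The media were well apart in both replicates, and the change was 1.26 ± 0.12 (adjusted p = 4.6e-05). AT3G03270, the universal stress protein HRU1, rose from 394 and 418 to 1107 and 889, by 1.29 ± 0.13 (adjusted p = 8.01e-05). AT4G27450, also a low-oxygen protein, rose from 771 and 817 to 1583 and 1615, by 1.01 ± 0.12 (adjusted p = 0.00024).

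AT1G19530 stood at 312 and 390.2 with iron and 1033 and 1380 without, a change of 1.77 ± 0.30 (adjusted p = 0.00549). It kept its direction but was called in 5 of the 8 fits that left out 1 array (0.128 without pye-1 +Fe replicate 1). AT4G10270, a wound-response family protein, had 1 of its +Fe values at the control level, at 9.34 and 22.2, against 178 and 129 without iron. The change was 3.40 ± 0.46 (adjusted p = 0.00104), and 2.90 with signals raised to the control level; it was lost in 1 fit (adjusted p = 0.0532 without pye-1 -Fe replicate 1). AT5G66985 rose in both replicates, from 544 and 336 to 1207 and 896, by 1.28 ± 0.11 (adjusted p = 1.97e-05), but missed the threshold without the block (adjusted p = 0.0576). AT3G27220, a kelch-repeat protein, changed by 0.95 ± 0.22 (adjusted p = 0.0414; 0.156 without the block, 0.377 without pye-1 +Fe replicate 2). The pyruvate decarboxylase PDC2 and the calmodulin-like CML38 changed by 0.23 and 0.79 and were not called (adjusted p = 0.367 and 0.350).

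The other 4 low-oxygen genes were left out of the test as too dim over the 8 arrays. Of these, AT4G24110 read 16.2 and 11.5 with iron and 115 and 97.8 without, at least 6.85-fold higher. AT3G10040 (HRA1), a trihelix factor that restrains the low-oxygen response, read 18.4 and 11.8 and 69.3 and 80.4, at least 4.83-fold higher. In the fit with no filter neither was called (adjusted p = 0.153 and 0.0855). AT4G33560 read 1.96 and 5.74 with iron and 29.0 and 26.4 without, and AT5G10040 17.5 and 17.7 and 21.7 and 23.3; all 8 values lie under 30 units, and neither was called there (adjusted p = 0.232 and 0.917).

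**Figure D4:**
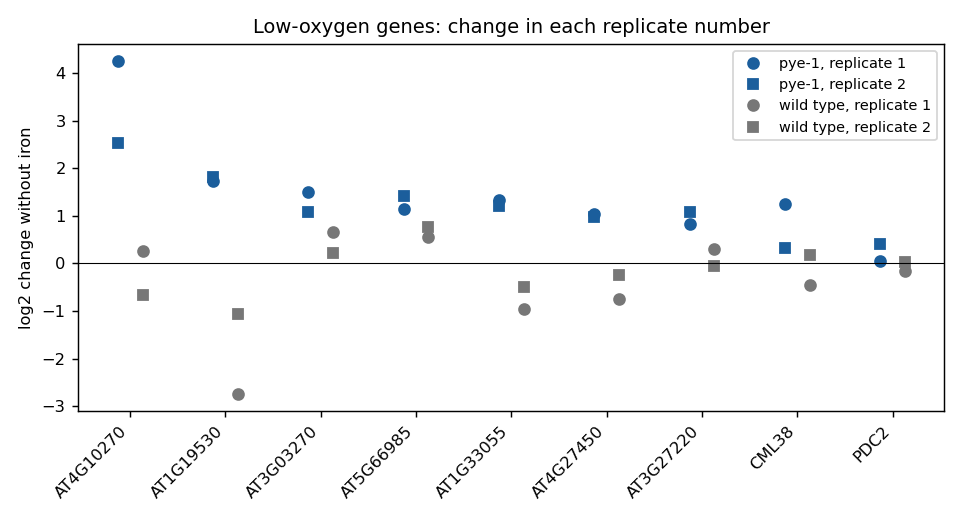
Log2 change without iron of the 9 tested low-oxygen genes in each replicate number, pye-1 in blue and wild type in grey, circles replicate 1 and squares replicate 2. For AT1G19530, AT1G33055 and AT4G27450 both pye-1 values are above 0 and both wild-type values are below 0. For AT4G10270, CML38, PDC2 and AT3G27220 both pye-1 values are above 0 and 1 wild-type value is below 0. For AT5G66985 and AT3G03270 all values of both genotypes are above 0.

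Wild type moved otherwise for part of this list. On wild-type arrays AT1G19530 read 847 and 370.2 with iron and 127 and 178 without, a change of -1.90. The changes of AT1G33055 and AT4G27450 in wild type were -0.73 and -0.49 (adjusted p = 0.0051 and 0.0429). The difference of the responses, pye-1 minus wild type, was 3.67 ± 0.42 for AT1G19530 (adjusted p = 0.00151), 2.00 ± 0.17 for AT1G33055 (0.000354) and 1.50 ± 0.16 for AT4G27450 (0.00112). These 3 held without the block and in all 8 fits that left out 1 array. For AT4G10270 the difference was 3.59 ± 0.65 (adjusted p = 0.0399), which was lost without the block (adjusted p = 0.204) and in all 8 fits. For AT3G03270, AT5G66985 and AT3G27220 the difference was not called (adjusted p = 0.0933, 0.15 and 0.343). In wild type AT5G66985 was also called higher, at 0.66 (adjusted p = 0.00553). AT3G03270 and AT3G27220 changed there by 0.43 and 0.12 and were not called (adjusted p = 0.125 and 0.867).

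Stress genes of other kinds moved singly. Of 6 oxidative stress genes tested, 2 were called higher (background 1.69%). AT2G21640 (UPOX), a marker of mitochondrial stress, rose from 45.2 and 56.9 to 199.6 and 153, by 1.79 ± 0.27 (adjusted p = 0.00253; 0.0587 without pye-1 +Fe replicate 1). The glutathione transferase GSTU25 rose by 0.51 ± 0.10 (adjusted p = 0.0161), which was lost without the block (adjusted p = 0.423) and in 4 of 8 fits (0.189 without pye-1 -Fe replicate 1). None of 4 tested genes for haem and iron-sulfur clusters was called: HEMA2, SUFE2, CPNIFS and ISU1 changed by 0.53, 0.14, -0.19 and 0.02 (adjusted p = 0.228 to 0.945). The clock genes FIO1 and GI changed by 0.17 and 0.03 and were not called (adjusted p = 0.822 and 0.958).

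In glucosinolate synthesis, BCAT4, the aminotransferase that starts methionine chain elongation, fell from 162 and 116 to 84.0 and 52.6. The change was -1.05 ± 0.19 (adjusted p = 0.0102), lost without the block (adjusted p = 0.0946) and in 3 of 8 fits (0.149 without pye-1 +Fe replicate 1). Its wild-type values went the other way, from 115 and 111 to 282 and 286, and the difference of the responses was -2.38 ± 0.27 (adjusted p = 0.00143), which held without the block (0.0416) and in all 8 fits. AT2G31790 (UGT74C1), a later step, changed by -0.72 ± 0.19 in pye-1 and was not called (adjusted p = 0.0759), and its difference of responses was -1.27 ± 0.27 (adjusted p = 0.0843).

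Of 21 listed markers of green tissue, 3 had a tested probe set. These, PSAN, RCA and LHCB4.1, summed to 749.7 and 801.9 signal units on the +Fe arrays and to 566 and 629 on the -Fe arrays of pye-1, and none was at 0. PSAN, a photosystem I subunit, fell by 0.76 on the log2 scale, a change of -0.76 ± 0.17 (adjusted p = 0.0304; 0.103 without the block, 0.222 without pye-1 +Fe replicate 2), while RCA and LHCB4.1 changed by -0.45 and -0.16 and were not called (adjusted p = 0.0747 and 0.621). In wild type PSAN changed by -0.93 (adjusted p = 0.00798). The part of green tissue in the other falls was not tested.

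Among the other genes with the largest rises, ATPMEPCRB, a pectin methylesterase, read 38.5 and 6.18 with iron and 937 and 688 without it. One +Fe value was at the control level, and the change of 5.70 ± 0.50 (adjusted p = 2.21e-05) became 5.18 with signals raised to that level. AT3G61930, whose function is unknown, rose from 76.0 and 89.2 to 1488 and 1484, by 4.17 ± 0.12 (adjusted p = 9.12e-10). AT5G38820, of an amino acid transporter family, rose from 69.8 and 56.5 to 585 and 564, by 3.19 ± 0.19 (adjusted p = 9.28e-07). The -Fe arrays of these genes stood clear of the +Fe arrays, which the naming rule required.

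AT4G19370 rose from 30.1 and 35.8 to 182 and 319.6, by 2.88 ± 0.22 (adjusted p = 6.65e-06). AT1G73120 read 88.4 and 83.3 with iron and 660.4 and 900.0 without; the change of 3.17 ± 0.65 (adjusted p = 0.0198) was lost without the block (adjusted p = 0.123) and in 3 of 8 fits (0.217 without pye-1 +Fe replicate 1). That gene had 1 wild-type +Fe array at 6.40, far under the other. The error of the fit is shared by all arrays, and the part of that array in the lost calls was not tested. AT1G49000 rose from 42.3 and 16.1 to 103 and 122, by 2.10 ± 0.32 (adjusted p = 0.00272; 0.0529 without pye-1 +Fe replicate 2).

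The largest falls among named genes were smaller than the largest rises. CYP718, a cytochrome P450, fell from 239 and 225 to 63.0 and 40.2, by -2.20 ± 0.20 (adjusted p = 2.37e-05). AT2G41810, a protein of the DUF642 cell wall family, read 519.5 and 857 with iron and 180.1 and 234 without, a change of -1.70 ± 0.15 (adjusted p = 1.97e-05). AT5G54040 fell from 313 and 288 to 152 and 136, by -1.06 ± 0.13 (adjusted p = 0.000532). The groups of these genes did not overlap, which the naming rule required, and the 3 calls were also made without the block.

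AT1G21440, of a phosphoenolpyruvate carboxylase family, fell from 487 and 399 to 201 and 168, by -1.26 ± 0.20 (adjusted p = 0.00325; 0.0941 without pye-1 +Fe replicate 1). AT3G61870 fell from 93.7 and 108 to 33.3 and 41.7, by -1.43 ± 0.21 (adjusted p = 0.00194; 0.0529 without pye-1 +Fe replicate 2). A further 5 falls were lost without the block: AT2G30540, of the glutaredoxin family (adjusted p = 0.142), AT5G14330 (0.0769), AT2G38330, of the MATE transporter family (0.0878), AT5G24570 (0.223) and LIL3:1, a light-harvesting-like protein (0.0946). With the block they changed by -2.25, -2.21, -1.14, -1.09 and -1.07 (adjusted p = 0.0363, 0.0174, 0.0204, 0.0414 and 0.0243), and each was called in 4 or 5 of the 8 fits that left out 1 array. The -Fe values of AT2G30540 were 4.86 and 18.8, the first of them under the control level, and its change was -1.25 with signals raised to that level.

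AT4G10420 read 31.0 and 41.7 with iron and 12.7 and 6.61 without, both of the latter at the control level. It was at least 2.39-fold lower (adjusted p = 0.046), but was called in 0 of the 8 fits that left out 1 array (limma, adjusted p up to 0.553 without pye-1 +Fe replicate 2), and not without the block (adjusted p = 0.0946). With signals raised to the control level, it was not called (adjusted p = 0.14), and neither was AT2G30540 (adjusted p = 0.077).

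Probe sets that the annotation leaves unnamed made up 234 of the 422 calls. The unnamed ones described here include a rise exceeded only by that of AT3G12900, and a fall larger than any given for a named gene. The one with the largest rise, probe-253502_at, read 11.4 and 11.3 with iron and 1113 and 1575 without. Both +Fe values were at the control level, so it was at least 85.7-fold higher (adjusted p = 3.62e-09). It read under 23.3, the mean signal that the filter required, on every +Fe array of both genotypes. It was thus tested only through its -Fe arrays. probe-250983_at rose from 240.2 and 214 to 3148 and 3554, by 3.88 ± 0.17 (adjusted p = 4.24e-08). probe-254550_at differed between its +Fe replicates, at 731 and 245, and reached 4775 and 4575 without iron, a change of 3.46 ± 0.35 (adjusted p = 7.59e-05). A further 3, probe-257689_at, probe-262091_at and probe-246998_at, rose by 4.27 ± 0.50, 3.99 ± 0.28 and 3.29 ± 0.19. Of these, probe-262091_at also read under 23.3 on every +Fe array of both genotypes and was tested only through its -Fe arrays. On the +Fe arrays probe-257689_at read at most 24.1. All 6 were called without the block and in all 8 fits.

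Among unnamed falls, probe-254818_at read 769 and 735 with iron and 71.6 and 226 without. Its -Fe replicates differ about 3-fold but lie well under the +Fe arrays, by -2.56 ± 0.41 (adjusted p = 0.0038; 0.103 without pye-1 +Fe replicate 2). probe-254107_at reached the control level on each -Fe array and was at least 3.52-fold lower (adjusted p = 0.00463; 0.127 without pye-1 +Fe replicate 2). probe-256352_at, probe-264415_at and probe-247871_at fell by changes of -1.91 ± 0.20, -1.82 ± 0.20 and -1.77 ± 0.18 and were called in all 8 fits. probe-254945_at changed by -1.70 ± 0.39 (adjusted p = 0.0399), and its call was lost without the block (adjusted p = 0.274) and in 4 of 8 fits (0.325 without pye-1 +Fe replicate 1).

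Wild type had 485 calls in the same fit (3.05%). Its change had the sign of the pye-1 change at 351 of the 422 probe sets called in pye-1 (83.2%), against 54.0% of all 15922 tested, and 174 (117 higher and 57 lower) were called in the same direction in both. That is 41.2% of the pye-1 calls and 35.9% of the wild-type calls; the genotypes share no array but share 1 estimate of the error. Of the uptake genes, AT3G12900 read 2.88 and 4.44 in wild type on +Fe and 1018 and 1200 on -Fe medium, and AT3G07720 407 and 246 and 4285 and 4477, and both were called there. A call in 1 genotype only is not a difference between them, so the difference itself was tested. It was called for 56 probe sets (0.352%), 40 with the higher change in pye-1 and 16 with the lower, and 46 of the 56 were also called in pye-1. Without the block 14 were called, and without the intensity trend 0 in limma, where 1517 had an unadjusted p under 0.05.

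Beside the low-oxygen genes and BCAT4, AT5G51010, of a rubredoxin-like family, rose in pye-1 from 133 and 169.7 to 301 and 367, while wild type went from 134 and 148 to 77.9 and 92.8. The changes were 1.15 ± 0.14 and -0.73, and their difference was 1.87 ± 0.20 (adjusted p = 0.00112), also called without the block (0.0416) and in all 8 fits. The peroxidase AT3G49960 fell less in pye-1 than in wild type, where it went from 312 and 346 to 10.9 and 25.9. The difference of 2.46 ± 0.36 (adjusted p = 0.0104) was lost without the block (adjusted p = 0.225). AT1G21440 fell in pye-1 and read 277 and 423 and 607 and 449 in wild type. Its difference of -1.87 ± 0.28 (adjusted p = 0.0124) was likewise lost without the block (adjusted p = 0.111).

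Smaller differences were found for HIS1-3, a linker histone variant of stress responses, at 1.15 ± 0.15 (adjusted p = 0.00417), for AT1G05340 at 1.07 ± 0.15 (0.00817), for SWEET16, a vacuolar sugar carrier, at -0.90 ± 0.15 (0.0205), for NAI1 at -0.95 ± 0.16 (0.0295) and for AT4G00670, of the remorin family, at -1.31 ± 0.23 (0.0355). HIS1-3 read 1109 and 798 with iron and 1782 and 1211 without in pye-1, where the media did not overlap, and 1554 and 1236 and then 1036 and 917 in wild type. Its call in pye-1 (adjusted p = 0.0042) was lost without the block (adjusted p = 0.337) and in 2 of 8 fits (0.133 without pye-1 +Fe replicate 2). None of these 5 was called without the block, where the adjusted p was 0.305 to 0.842. With 1 array left out, the differences of SWEET16, NAI1 and AT4G00670 were lost in most fits. SWEET16 was also not called in pye-1 itself (adjusted p = 0.107). Of the uptake genes none differed between the genotypes beyond the threshold; for BGLU42 the difference was 0.19 ± 0.15 (adjusted p = 0.688). For AT3G12900 it was -0.26 ± 0.33 (adjusted p = 0.82), but its +Fe values in both genotypes lie under the control level, and with signals raised to that level the difference turned to 1.27 (adjusted p = 0.128). For IMA1 it was -1.03 ± 0.20, which was not called (adjusted p = 0.0666).

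The filter on dim probe sets left out 6824. In a fit that kept them, 5 of these were called. AT5G25840 read 5.40 and 2.63 with iron, both at the control level, and 211 and 168 without, at least 12.2-fold higher (adjusted p = 0.000497). AT3G01490, of a protein kinase family, read 4.33 and 2.60 with iron and 103 and 90.8 without, at least 6.25-fold higher (adjusted p = 0.0191). Its wild-type values were between 2.11 and 7.07 on all 4 arrays, but the difference between the genotypes was not called (adjusted p = 0.177). AT1G19060 read 0.81 and 0.592 and 17.9 and 22.2, with 1 of its -Fe values also at the control level. The unnamed probe-249477_s_at read 54.8 and 58.1 with iron and 4.48 and 7.08 without, and probe-265644_at 30.7 and 31.6 and 3.01 and 3.75; both were at the control level without iron.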

How the data were processed

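The deposited values are intensities that the authors computed with MAS5 (version not given in the sources used here), per the submitters' processing notes. MAS5 subtracts each mismatch probe from its perfect-match partner and averages over the set. The values are on a linear scale and scatter widely when dim, and no detection calls were used. Per the labels, RNA was amplified in 1 cycle and each replicate was a pool of roots. Names came from the platform annotation, updated through a TAIR10.1 gene table. Of 22746 non-control probe sets, 13513 name 1 gene, 503 several and 8730 none. No coordinates are given, since no genome build is given in the sources used here.

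In R 4.3.3, log2 signals with no pseudocount were fitted by limma 3.58.1 (lmFit, 4 group means and the replicate number as a block over all 8 arrays, then eBayes with an intensity trend; 3 residual and 9.41 prior degrees of freedom). The dimmest 30% of probe sets (mean signal under 23.3) were left out, which leaves 15922, and p-values were adjusted by Benjamini-Hochberg over these with a threshold of 0.05. The script was tested on simulated data. The control level (27 bacterial probe sets taken as not spiked) bounds folds: the bright arrays' mean log2 signal against that of the dim arrays, each raised to its control level where it lay under it. The labels give all groups replicate numbers 1 and 2 but do not say what a number stands for. The deviation of an array from its group mean correlated with that of the same-numbered array of another group at 0.178 to 0.302 (6 pairs). With 2 arrays a side an exact permutation test cannot pass the threshold, and none was run. The number of arrays limits the precision.

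Named were PYE, up to 15 single-gene rises and 15 falls with the largest change among calls whose groups did not overlap, called members of the uptake and regulator lists and the members of other lists with the smallest p, up to 6 unnamed probe sets each way, and up to 6 genes each way for the genotype difference. Of 21 gene lists, 9 had no named probe set, among them PYE targets, nicotianamine and ligand transport, iron storage, phosphate, ethylene and jasmonate, and suberin. Members and lists were chosen with earlier results of these data known. Alternatives were no block, log2(signal + 16), no filter, the dimmest 50% left out, quantile normalization, signals raised to the control level, no trend, the pye-1 arrays alone, and each array left out. 1 listed root-hair gene is not reported here.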

Additional observations from a re-analysis of the deposited data

Results flagged for a closer look

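For 15 of the named probe sets the response to iron deficiency differed between pye-1 and wild type by the test of the difference itself (limma, adjusted p under 0.05 over 15922 probe sets, where 56 were called). The values are the log2 change in pye-1 minus that in wild type. Held without the replicate block and in all 8 fits leaving out an array were AT1G19530 at 3.67 ± 0.42, AT1G33055 at 2.00 ± 0.17, AT5G51010 at 1.87 ± 0.20, AT4G27450 at 1.50 ± 0.16, BCAT4 at -2.38 ± 0.27 and probe-253502_at at -3.06 ± 0.33. The last of these rests on values at the control level: wild type read 0.994 and 1.21 with iron, and with signals raised to that level the difference turned to 0.65 (adjusted p = 0.491).

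The other 9 were lost without the block. They were AT4G10270 at 3.59 ± 0.65, AT3G49960 at 2.46 ± 0.36, HIS1-3 at 1.15 ± 0.15, AT1G05340 at 1.07 ± 0.15 and AT3G61930 at 0.97 ± 0.17, where pye-1 had the higher change, and AT1G21440 at -1.87 ± 0.28, AT4G00670 at -1.31 ± 0.23, NAI1 at -0.95 ± 0.16 and SWEET16 at -0.90 ± 0.15, where it had the lower. AT3G61930 rose in both genotypes, from 129.9 and 121 to 1130 and 1179 in wild type. Most fits that left out 1 array lost the differences of AT4G10270, AT3G61930, AT4G00670, NAI1 and SWEET16.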

How the results depend on the processing

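The 422 calls (269 higher, 153 lower) became 167 (135 and 32) with no replicate block, 133 (103 and 30) with no intensity trend, 819 (469 and 350) with the pye-1 arrays alone, and 298 (209 and 89) with no filter. Other scalings, pseudocounts and filters gave 368 to 451. Leaving out each array in turn gave 139 to 474 calls (116 to 295 higher and 23 to 179 lower), the fewest without the pye-1 +Fe replicate 2 array. The 56 calls for the genotype difference became 14 with no block, 0 with no trend and 13 to 133 with an array left out (13 without pye-1 +Fe replicate 2, 24 without pye-1 +Fe replicate 1, 25 without wild-type -Fe replicate 1 and 133 without wild-type +Fe replicate 2). For these count changes the cause was not tested. Of 62 named probe sets called in pye-1, the number that lost the call was 21 with no block, 30 with no trend, 13 with no filter, 3 with quantile normalization, 2 with signals raised to the control level, 1 with log2(signal + 16) and 1 with the pye-1 arrays alone; none changed direction under these. The difference of probe-253502_at reversed to 0.65 (adjusted p = 0.491) once signals were raised to the control level, under which its wild-type +Fe values lie. With 2 arrays per group no single outlying array can be told, and leaving 1 out assumes that the lone array varies like the other groups. Probe sets near the control level have only bounds.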

Other observations

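Some unnamed probe sets that the naming rule does not reach separated the genotypes, and were picked after their values were seen. probe-258487_at read 91.7 and 99.9 in pye-1 with iron and 720.2 and 643 without, against 88.8 and 106 and 127 and 154 in wild type. Its change in pye-1 was 2.83 ± 0.15 and the difference from wild type 2.30 (adjusted p = 0.000354; 0.0106 without the block). probe-259871_at stood at 1207 and 1088 in pye-1 with iron and at 3676 and 2774 without, while all 4 wild-type arrays read 65.3 to 105. The difference of the responses was 1.88 (adjusted p = 0.000354; 0.0416 without the block). probe-251109_at did not change in the same way in both genotypes: it read 2104 and 2256 and 2300 and 2187 in pye-1, and fell in wild type from 1039 and 1055 to 237 and 311 (difference 1.99, adjusted p = 0.000299; 0.0106 without the block). These 3 differences were called in all 8 fits that left out 1 array.

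Calls in opposite directions in the genotypes were made for 10 probe sets. They include AT1G33055, AT4G27450, AT5G51010, AT1G19530 and HIS1-3, higher in pye-1 without iron and lower in wild type, and BCAT4, the reverse. The pye-1 calls of HIS1-3 and BCAT4 were lost without the block (adjusted p = 0.337 and 0.0946). The unnamed probe-252607_at read 2271 and 2376 in pye-1 with iron and 1210 and 1227 without, and in wild type 1774 and 1740 and then 2473 and 2264. Its changes were -0.93 ± 0.09 and 0.43, and the difference was -1.36 (adjusted p = 0.000354; 0.0145 without the block).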
